A study of Mus musculus with 6 samples.

Results

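Egr1, Egr2, Egr3, Ier2, Ier3, Ier5, Nr4a1 and Btg2 are immediate early genes that do not encode AP-1 proteins. They were picked by name, as 8 of the 42450 genes listed in the table of total RNA counts, at a time when earlier results of these data were known. No rule on their values was applied, but the choice is not independent of these data. The table holds total RNA-seq libraries of mouse embryonic stem cells (ESC), from the male line E14tg2a.4 (WT, n = 3) and Srrm2+/- cells (line CG0630, n = 3), in which a gene trap truncates 1 allele of Srrm2 in the same parental line. Srrm2 encodes a large splicing-associated protein of nuclear speckles. Cells of both genotypes were grown on gelatin with LIF, in serum-free medium before collection, and received no other treatment. Replicates were thawed from separately frozen batches of each line. Srrm2+/- is 1 gene-trap line, and the WT batches had been frozen at higher passage numbers, so that genotype, line and passage cannot be told apart.

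The libraries held 54151532 to 69933465 estimated counts, with more in every Srrm2+/- library than in any WT library. Srrm2 was lower in Srrm2+/-, at 56.2 to 62.3 normalised CPM (counts divided by library size and scaled to a common total) against 91.2 to 98.3 in WT (log2 fold change -0.69, SE 0.05, edgeR adjusted p = 2.38e-05). The cells carried the ESC markers in both genotypes. Pou5f1 measured 847 ± 16.3 CPM in WT, against 824 ± 11.7 CPM in the mutant line (SD, n = 3). Over all 8 ESC markers the summed level was 5058 to 5241 CPM in WT and 4426 to 4537 CPM in Srrm2+/-. Of these markers edgeR called 5 lower (Nanog, Sox2, Esrrb, Zfp42 and Dppa5a) and 1 higher (Utf1), with a median log2 fold change of -0.24. Nanog fell most, from 482 ± 15.3 to 292 ± 11.0 CPM (log2 fold change -0.72, edgeR adjusted p = 8.60e-06).

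Immediate early genes are transcribed within minutes of a growth factor, stress or mechanical signal, by transcription factors already present in the cell. Many of their promoters carry binding sites for serum response factor (SRF) with its ETS partners, and for CREB, which are reached by the ERK and other kinase pathways. Their mRNAs are mostly short-lived, so that their levels follow ongoing signalling and transcription. EGR proteins are zinc finger transcription factors, the IER genes encode regulators of growth and stress responses, of which Ier2 and Ier5 are related and Ier3 is not, Nr4a1 encodes an orphan nuclear receptor, and Btg2 an antiproliferative partner of the mRNA deadenylase.

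In Srrm2+/- ESC, 6 of the 8 genes rose, namely Egr1, Ier2, Ier3, Ier5, Nr4a1 and Btg2, and none fell (edgeR, adjusted p under 0.05). Their rises ranged from 1.21-fold for Ier2 to 5.07-fold for Egr1. Among all 18905 genes tested, 13.6% were called higher, 11.7% lower and 25.3% in either direction. The other members were Egr2, which was tested and not called, and Egr3, which lay at or near 0 counts and did not pass the filter. The 7 genes tested passed that filter in WT alone as well as in Srrm2+/-. The same 6 genes had no overlap between the CPM values of the groups, with every Srrm2+/- library above every WT library, which held for 21.4% of all genes tested (41.4% had no overlap in either direction). The median log2 fold change of the 7 tested genes was 1.25, and that of all genes tested was -0.00254. With an added minimum log2 fold change of 1, 4 members remained called, Egr1, Ier3, Ier5 and Nr4a1, where 4.3% of all genes tested were called higher. In bulk RNA, a larger number of cells with the transcript and more transcript per cell cannot be told apart.

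**Figure D1:**
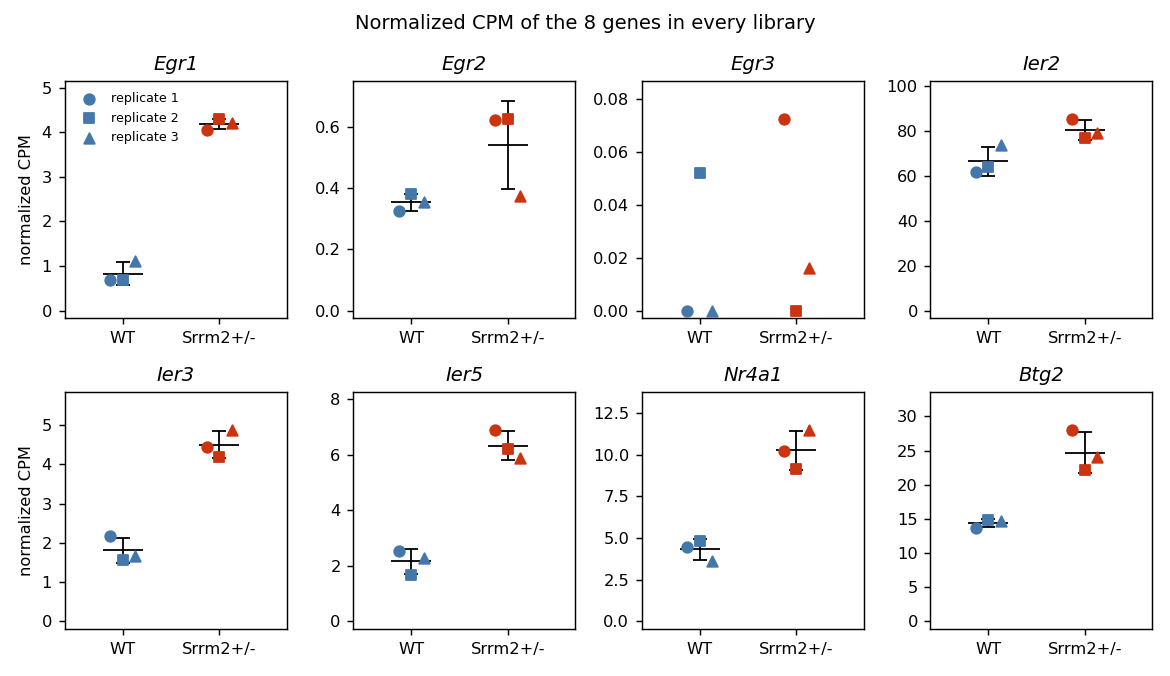
Normalised CPM of each gene in every library of WT (blue) and Srrm2+/- (red), with replicates as separate symbols, and the group mean and SD as black bars (no bars for Egr3, which was at or near 0). Egr1 shows the widest separation of the groups in relative terms, from at most 1.12 CPM in WT to at least 4.06 CPM in Srrm2+/-, and Egr2 and Egr3 overlap between the groups.

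Transcripts of other cell types were measured in the same libraries, where 13.6% of all genes tested were called higher. Of 7 fibroblast markers 5 could be tested and 4 were called higher, with a median log2 fold change of 2.28. The summed level of the 7 was 3.21 to 3.34 CPM in WT and 6.66 to 10.4 CPM in Srrm2+/-. Col1a2 and Col3a1, which encode fibrillar collagen chains, rose most in CPM, with log2 fold changes of 3.89 and 2.28. In WT, Postn lay at 0.0519 to 0.144 CPM and Col1a2 at 0.108 CPM in replicate 1, below the filter limit of 0.167 CPM. Both passed the filter only through Srrm2+/-. The number of fibroblast markers called and their median thus rest in part on genes that were tested because they were higher there. Thy1, the marker of the list with the highest level in WT, went the other way, from 1.93 ± 0.173 to 1.19 ± 0.498 CPM (log2 fold change -0.70 ± 0.27, edgeR adjusted p = 0.0939), and 1 marker of the list was called lower without Srrm2+/- replicate 3. Dcn was at 0 in WT and at most 0.0578 CPM in Srrm2+/-, and Lum was at most 0.0541 CPM in any library. Primitive endoderm markers summed to 2.39 to 2.70 CPM in WT and 2.56 to 3.64 CPM in Srrm2+/-, with 1 of 5 tested called higher (Dab2) and a median of -0.00377. Trophoblast markers summed to 2.20 to 2.40 CPM in WT and 2.70 to 3.23 CPM in Srrm2+/-, with 1 of 4 tested called higher (Eomes, a call lost in 5 of the 6 fits that left out 1 library), and a median of 0.16. Cdx2, a defining trophoblast marker, was at 0 in WT and at 0.0723, 0.116 and 0.276 CPM in Srrm2+/-, without overlap, and was too low to be tested. The part of these cell types, and of the lower ESC markers, in the rise of the immediate early genes was not tested.

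Per kilobase of merged exons, the members spanned a wide range of levels, and their order was the same in both genotypes. Ier2 was highest, at 43.6 ± 4.16 CPM per kb in WT and 52.7 ± 2.82 in Srrm2+/- (SD, n = 3), above 93.6% and 94.9% of tested genes in level. Btg2 followed at 5.26 ± 0.227 CPM per kb in WT and 9.01 ± 1.10 in Srrm2+/-. Ier3 and Nr4a1 lay close together, at 1.60 ± 0.290 and 1.23 ± 0.173 CPM per kb in WT, and at 3.98 ± 0.308 and 2.93 ± 0.334 in Srrm2+/-. Their libraries did not overlap in either genotype, although in WT the lowest of Ier3 (1.39 CPM per kb) barely exceeded the highest of Nr4a1 (1.38). With the length of the longest transcript in place of merged exons Nr4a1 stood at 1.69 in WT and 4.02 in Srrm2+/-, above Ier3. The order of these neighbours therefore depends on the length used. Ier5 came next (0.661 ± 0.139 CPM per kb in WT and 1.93 ± 0.157 in Srrm2+/-), ahead of Egr1 (0.184 ± 0.0567 and 0.934 ± 0.0263) and Egr2 (0.104 ± 0.00828 and 0.159 ± 0.0424). Egr1 and Egr2 were close in WT and far apart in Srrm2+/-, where the level of Egr1 passed 38.4% of tested genes and that of Egr2 12.4%. Egr3 was last, with 0 counts in 3 of the 6 libraries.

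**Figure D2:**
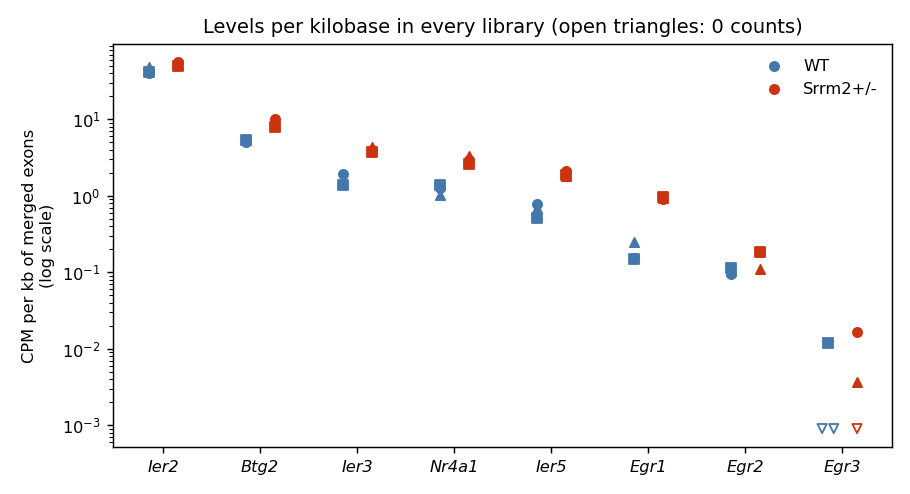
Level of each gene in CPM per kb of merged exons (log axis) in every WT (blue) and Srrm2+/- (red) library, with replicates 1, 2 and 3 as circles, squares and triangles and open inverted triangles for libraries at 0 counts. Ier2 lies above all other members in both genotypes, and Egr1 lies close to Egr2 in WT and above it in Srrm2+/-.

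Of the EGR genes, Egr1 was called higher, Egr2 was not called and Egr3 could not be tested. Egr1 (ENSMUSG00000038418) lies on chromosome 18 (GRCm38, 34859823 to 34864984, plus strand) and encodes the best known EGR factor, a rapid reporter of ERK activity. It measured 0.685, 0.675 and 1.12 CPM in WT replicates 1 to 3, and 4.06, 4.29 and 4.21 CPM in Srrm2+/- replicates 1 to 3. All Srrm2+/- libraries were thus well above the WT libraries, and WT replicate 3 was the highest of its group. This was a log2 fold change of 2.34 ± 0.20 (SE), or 5.07-fold with a 95% interval of 3.43 to 7.50 (edgeR adjusted p = 6.47e-05). It exceeded the log2 fold change of 99.0% of tested genes. The WT libraries held 38, 39 and 60 reads of Egr1, and the coefficient of variation was 30.8% in WT, where counting alone would give 14.8%. In Srrm2+/-, with 260 to 296 reads, it was 2.81%, against 5.99% from counting.

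Egr2 (Krox20, ENSMUSG00000037868) encodes the EGR factor required in hindbrain patterning and myelination. It lies on chromosome 10 (67535475 to 67542188, plus strand). It measured 0.324, 0.381 and 0.355 CPM in WT and 0.621, 0.624 and 0.373 CPM in Srrm2+/-. Replicates 1 and 2 of Srrm2+/- were above all WT libraries, whereas replicate 3 lay within the WT range, so that the groups overlapped. The log2 fold change was 0.61 ± 0.30 (SE), with an interval of 0.855-fold to 2.73-fold (edgeR adjusted p = 0.183). With 18 to 43 reads per library, a difference of this size was not resolved. Egr3 (ENSMUSG00000033730, chromosome 14, 70077203 to 70082614, plus strand), a close paralogue of Egr2, had 0, 3 and 0 reads in WT and 5.40, 0 and 0.882 estimated reads in Srrm2+/-. A count of 0 allows up to 3 reads, or 0.0434 to 0.0560 CPM in these libraries, and no fold change was computed. Few reads could have been exchanged within the family, since 0.406% of the 31-base words of Egr2 transcripts occur in another gene (Egr3), 0.523% of those of Egr3, and 0% of those of Egr1.

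Ratios within a library do not depend on its scaling. The log2 ratio of Egr1 to Egr2 reads was 1.06, 0.812 and 1.63 in WT and 2.69, 2.77 and 3.47 in Srrm2+/-, so that the groups did not overlap. The difference was 1.81 ± 0.35 (SE; two-sided exact permutation test, p = 0.1, adjusted over the 6 pairs compared p = 0.2). With 3 libraries against 3, 0.1 is the smallest p this test can give. The ratios of Egr1 and of Egr2 to Egr3 differed by 1.89 ± 1.49 and 0.08 ± 1.35 (exact p = 0.4 and 0.9), with Egr3 at or near the floor.

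The promoter of Egr2 is shown because it carries the elements of the textbook immediate early promoter. The 250 bases before its start (RefSeq, GRCm38.p6, chr10:67537619-67537868, plus strand, 5′ to 3′) are printed here with capitals for the CArG box, the SRF site, and for the core of the cyclic AMP response element (CRE core, TGACG on either strand, the CREB-type site).
Egr2: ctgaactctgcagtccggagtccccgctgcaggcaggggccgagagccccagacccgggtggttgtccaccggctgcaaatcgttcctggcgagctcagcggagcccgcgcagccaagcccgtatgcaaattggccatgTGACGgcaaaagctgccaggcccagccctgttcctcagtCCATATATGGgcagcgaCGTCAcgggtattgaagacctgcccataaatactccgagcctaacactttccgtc
The CArG box, CCATATATGG, lies 72 to 63 bases before the start, and CRE cores lie 111 to 107 bases before it on the strand of the gene and 55 to 51 bases before it on the opposite strand. A CArG box was found in 1.47% of the 32851 promoter windows of the same length, and a CRE core in 17.8%. Among the 5 members with a window, Egr2 was the only one with a CArG box. Egr1, Egr3 and Ier2 were not among these 5, and their promoters were not searched. Whether a CArG box goes with the change of a transcript was not tested. A match in the letters is a description of the sequence and says nothing of binding in these cells.

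Of the IER genes, all 3 rose. Ier2 (ENSMUSG00000053560, chromosome 8, 84661331 to 84662852, minus strand) encodes a small nuclear protein of the growth factor response. It measured 61.4, 64.0 and 73.4 CPM in WT and 85.0, 76.7 and 79.1 CPM in Srrm2+/-. The groups did not overlap, but WT replicate 3 came close to Srrm2+/- replicate 2. The rise in log2 terms was 0.28 ± 0.07 (SE), or 1.21-fold with an interval of 1.06 to 1.38 (edgeR adjusted p = 0.0186). This call was lost when WT replicate 1 (adjusted p = 0.0599), WT replicate 2 (0.0652), Srrm2+/- replicate 1 (0.0680) or Srrm2+/- replicate 3 (0.0500034) was left out of the edgeR fit. Ier2 was the member with the highest level and the smallest rise.

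Ier3 (ENSMUSG00000003541, chromosome 17, 35821684 to 35822923, plus strand), also known as IEX-1, encodes a stress-induced regulator of cell survival and ERK signalling. It measured 2.18, 1.57 and 1.66 CPM in WT and 4.44, 4.19 and 4.88 CPM in Srrm2+/-. The lowest Srrm2+/- library was well above the highest WT library. Ier3 rose by 1.32 ± 0.16 on the log2 scale (SE), or 2.49-fold with an interval of 1.84 to 3.37 (edgeR adjusted p = 0.000402). Ier5 (ENSMUSG00000056708, chromosome 1, 155096361 to 155099636, minus strand) encodes a nuclear protein that binds heat shock factor 1 (HSF1) and phosphatase PP2A. It measured 2.54, 1.66 and 2.30 CPM in WT and 6.89, 6.22 and 5.88 CPM in Srrm2+/-. The groups were separated by more than the spread of either. Ier5 rose by 1.55 ± 0.16 on the log2 scale (SE), or 2.93-fold with an interval of 2.14 to 4.00 (edgeR adjusted p = 2.00e-04).

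Within libraries, Ier2 reads fell behind those of Ier3 and Ier5 in Srrm2+/-. The log2 ratio of Ier2 to Ier3 was 4.81, 5.34 and 5.46 in WT and 4.26, 4.19 and 4.02 in Srrm2+/-, a difference of -1.05 ± 0.21 (SE). The log2 ratio of Ier2 to Ier5 was 4.59, 5.26 and 4.99 in WT and 3.62, 3.62 and 3.75 in Srrm2+/-, a difference of -1.28 ± 0.20 (SE). Neither pair of groups overlapped, and both reached the smallest exact permutation p of 0.1 (adjusted p = 0.2 over the 6 pairs). The ratio of Ier3 to Ier5 overlapped between the groups (difference -0.24 ± 0.16, exact p = 0.2, adjusted p = 0.3), so that a different response of these 2 genes was not shown.

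The promoters of Ier3 and Ier5 are shown as examples of windows without the searched motifs, for comparison with those of Egr2, Nr4a1 and Btg2. They are the 250 bases before the start (RefSeq, GRCm38.p6, 5′ to 3′ on the strand of the gene, chr17:35821463-35821712, plus strand, and chr1:155099637-155099886, minus strand).
Ier3: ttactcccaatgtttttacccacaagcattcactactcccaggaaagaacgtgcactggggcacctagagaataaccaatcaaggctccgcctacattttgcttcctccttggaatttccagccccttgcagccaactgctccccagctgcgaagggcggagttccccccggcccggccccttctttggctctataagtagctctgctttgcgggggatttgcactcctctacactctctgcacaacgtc
Ier5: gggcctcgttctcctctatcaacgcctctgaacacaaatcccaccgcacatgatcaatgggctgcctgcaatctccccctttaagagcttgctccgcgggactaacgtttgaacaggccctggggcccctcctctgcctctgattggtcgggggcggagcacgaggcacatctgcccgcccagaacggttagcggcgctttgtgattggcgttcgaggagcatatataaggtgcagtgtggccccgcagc
Neither held a CArG box, a CRE (TGACGTCA), a CRE core, an EGR site (GCGTGGGCG or GCGGGGGCG), an ETS core (CCGGAA), an AP-1 site (TGANTCA) or the letters TATAAA, on either strand. Whether members with and without these motifs differed in their change was not tested. The TATAAA sequence was found in 12.4% of all windows and in none of the 5 member windows, and an AP-1 site in 6.75% and in none. Only the exact letters TATAAA were searched, and similar letters such as TATATAAG in the Ier5 window were not counted.

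Nr4a1 (Nur77, ENSMUSG00000023034, chromosome 15, 101254269 to 101274795, plus strand) encodes a nuclear receptor whose activity is set mainly by how much of it is made. It measured 4.45, 4.83 and 3.64 CPM in WT and 10.2, 9.14 and 11.5 CPM in Srrm2+/-. Every Srrm2+/- library was above every WT library. Nr4a1 rose by 1.25 ± 0.13 on the log2 scale (SE), or 2.38-fold with an interval of 1.86 to 3.06 (edgeR adjusted p = 0.000183). Its paralogues were expressed at lower levels. Nr4a2 measured 0.483 ± 0.164 CPM in WT and 0.552 ± 0.0522 in Srrm2+/- (log2 fold change 0.19 ± 0.30, edgeR adjusted p = 0.694). Nr4a3 measured 0.338 ± 0.148 and 0.260 ± 0.0531 CPM (log2 fold change -0.38 ± 0.42, edgeR adjusted p = 0.563). Whether Nr4a1 differed in its change from these paralogues was not tested.

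Btg2 (ENSMUSG00000020423, chromosome 1, 134075170 to 134079120, minus strand) encodes a BTG/TOB protein, known as a target of p53 and as an adaptor of the CCR4-NOT deadenylase. It measured 13.7, 14.8 and 14.7 CPM in WT and 28.0, 22.1 and 24.0 CPM in Srrm2+/-. Replicate 1 was the highest of the Srrm2+/- libraries, and the groups did not overlap. The log2 fold change was 0.78 ± 0.09 (SE), or 1.71-fold with an interval of 1.45 to 2.03 (edgeR adjusted p = 0.000286). Of the other BTG/TOB genes tested, Tob1 fell, from 10.7 ± 0.624 to 8.13 ± 0.0845 CPM (log2 fold change -0.39 ± 0.08, edgeR adjusted p = 0.00533). Btg1, Btg3 and Tob2 did not pass the test, with log2 fold changes of -0.19, 0.20 and 0.20, and Btg4 had 0 counts in all libraries.

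The promoters of Nr4a1 and Btg2 are shown for their CREB-type sites, the class of element through which cyclic AMP and calcium signals reach immediate early genes. The windows are again the 250 bases before the start (RefSeq, GRCm38.p6, 5′ to 3′ on the strand of the gene, chr15:101266596-101266845, plus strand, and chr1:134079156-134079405, minus strand), with capitals for CRE and CRE core.
Nr4a1: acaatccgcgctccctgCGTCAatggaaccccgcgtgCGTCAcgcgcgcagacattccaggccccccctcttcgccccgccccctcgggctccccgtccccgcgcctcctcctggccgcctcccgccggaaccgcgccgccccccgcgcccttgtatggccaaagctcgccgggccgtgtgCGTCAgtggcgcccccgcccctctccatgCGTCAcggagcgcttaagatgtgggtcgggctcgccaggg
Btg2: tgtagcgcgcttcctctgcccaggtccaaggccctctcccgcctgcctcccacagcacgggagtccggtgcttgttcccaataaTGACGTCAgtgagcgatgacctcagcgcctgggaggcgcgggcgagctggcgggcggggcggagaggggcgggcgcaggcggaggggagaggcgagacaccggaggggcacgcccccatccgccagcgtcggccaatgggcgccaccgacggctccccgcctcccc
The Nr4a1 window held 4 CRE cores, all read on the opposite strand as CGTCA, the nearest 40 to 36 bases before the start. It also held 1 EGR site (GCGGGGGCG on the opposite strand, 60 to 52 bases before the start; 2.57% of all windows) and 1 ETS core (CCGGAA, 125 to 120 bases before the start; 12.0% of all windows). The Btg2 window held a full CRE, TGACGTCA, 166 to 159 bases before the start, which was found in 1.55% of all windows and contains a CRE core on each strand. In all, 3 of the 5 member windows held a CRE core (Egr2, Nr4a1 and Btg2).

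Closely related genes were called about as often as genes in general, of which 13.6% of all tested were called higher and 11.7% lower. Of 9 relatives of the members by family, 7 were tested, of which 1 rose, 1 fell and 5 were not called, with a median log2 fold change of 0.19. Ier5l, the paralogue of Ier5, rose from 8.18 ± 0.0515 to 13.9 ± 0.945 CPM (log2 fold change 0.77 ± 0.07, edgeR adjusted p = 0.00011), and Ier5 shares 0.123% of its 31-base words with it. Egr4 had at most 4 reads in any library and was not tested. Both corepressors that bind EGR proteins, Nab1 and Nab2, were called higher. Nab1 rose from 5.83 ± 0.388 to 11.7 ± 0.504 CPM (log2 fold change 1.01 ± 0.08, edgeR adjusted p = 4.98e-05). Nab2 rose from 2.70 ± 0.602 to 4.07 ± 0.635 CPM (log2 fold change 0.59 ± 0.19, edgeR adjusted p = 0.0456), a call that was lost in 5 of the 6 fits that left out 1 library, all but that without WT replicate 1, and with the replicate number as a block.

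Other immediate early genes were compared as a background for the members. Of 7 AP-1 genes 5 could be tested, and all 5 were called higher, with a median log2 fold change of 1.59. Jun rose from 2.67 ± 0.797 to 14.5 ± 1.87 CPM (log2 fold change 2.44), Fosl2 by 3.06, Junb by 1.23 and Jund by 0.30 on the log2 scale. Fos, at 0.324 to 1.30 CPM in WT and 1.99 to 2.66 CPM in Srrm2+/-, had a log2 fold change of 1.59 ± 0.39 (edgeR adjusted p = 0.0168), and its call was lost without WT replicate 3 or without Srrm2+/- replicate 1. Of 21 further immediate early genes, 17 rose, 1 fell and 3 (Klf10, Zfp36l1 and Csrnp1) were not called, with a median of 0.77. The largest log2 fold changes were those of Ccn1 (3.96) and Phlda1 (3.94), followed by Ptgs2 (3.07) and Ccn2 (3.01). Phlda1 lay at 0.0721 to 0.131 CPM in WT, below the filter limit of 0.167 CPM. It passed the filter through Srrm2+/- alone, so that it could be tested only because it was higher there. Myc rose from 3.47 ± 0.530 to 9.77 ± 0.687 CPM, and Arc from 7.13 ± 0.621 to 12.2 ± 0.513 CPM. Sgk1, which encodes a serum and glucocorticoid regulated kinase, was the gene that fell, from 178 ± 1.03 to 133 ± 6.67 CPM (log2 fold change -0.42).

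**Figure D3:**
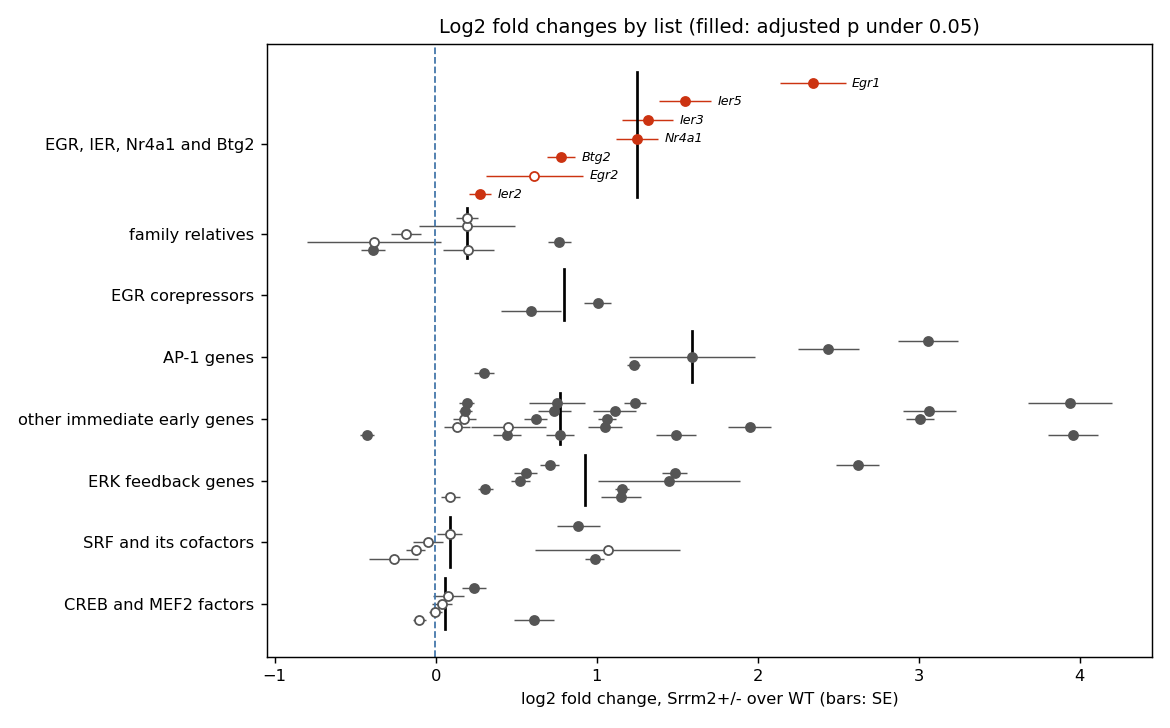
Log2 fold change of Srrm2+/- over WT (points, with SE as bars) for the tested genes of each list, filled where the edgeR adjusted p was under 0.05, with the median of each list as a black line and the median of all genes tested as a dashed line. The members (red) spread from 0.28 for Ier2 to 2.34 for Egr1. The list of SRF and its cofactors and that of CREB and MEF2 factors have medians of 0.09 and 0.06.

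The signalling and transcription machinery upstream of these genes was uneven, beside 13.6% of all genes tested called higher. ERK feedback genes, which are induced by ERK and restrain it, were called higher in 9 of 10 cases, with a median log2 fold change of 0.93. Dusp5, a nuclear ERK phosphatase, rose by 2.62, Dusp4 by 1.49, Dusp6 by 1.16 and Dusp1 by 1.15 on the log2 scale, and Spred2 was not called (0.09). The call of Dusp2 (1.45, edgeR adjusted p = 0.0404) was lost in 5 of the 6 fits that left out 1 library. Dusp2 had 4, 11 and 7 reads in WT and passed the filter through Srrm2+/- alone. Srf itself rose from 21.3 ± 0.841 to 42.1 ± 2.40 CPM (log2 fold change 0.99 ± 0.06, edgeR adjusted p = 7.09e-06), and the ETS cofactor Elk3 by 0.89. The other 5 of 7 genes of SRF and its cofactors, Mrtfa, Mrtfb, Myocd, Elk1 and Elk4, were not called. The list had a median of 0.09. Of these 5, Myocd had 4.05 to 25.0 reads per library and a log2 fold change of 1.07 ± 0.45 (edgeR adjusted p = 0.120). Myocd, at 0.162 CPM in WT replicate 1 and 0.0692 CPM in WT replicate 2, also passed the filter through Srrm2+/- alone. Of 6 CREB and MEF2 factors tested, Mef2d (0.61) and Mef2a (0.24) were called higher and the rest, including Creb1 (-0.00176), were not. The call of Mef2a was lost in 4 of the 6 fits that left out 1 library, by DESeq2 and by limma voom.

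Gene groups tied to the named functions of Btg2 and Ier5 showed smaller medians. Of all genes tested, 13.6% were called higher and 11.7% lower. Of 12 genes of p53 and its targets, 4 rose (Pmaip1 by 1.55, Phlda3 by 0.73, Mdm2 by 0.34 and Ccng1 by 0.25 on the log2 scale) and 8 were not called, with a median of 0.12. The uncalled genes included Cdkn1a, the p53-induced cell cycle inhibitor (6.33 ± 0.468 CPM in WT and 6.60 ± 0.743 in Srrm2+/-), and Trp53 (log2 fold change -0.01). Of 11 subunits of CCR4-NOT, to which BTG proteins bind, none rose, 2 were called lower (Cnot10 at -0.25 and Cnot11 at -0.18) and 9 were not called, among them the deadenylase genes Cnot7 and Cnot8 that bind Btg2 (0.06 and 0.03). The call of Cnot11 was lost in 4 of the 6 fits that left out 1 library. Of 9 tested genes of HSF1 and the heat shock response, Hspa1a (1.30), Hspa1b (1.09) and Hspa8 (0.41) rose, Hsp90aa1 fell by 0.26 and 5 were not called, with a median of 0.09. Hspa1a and Hspa1b are near-identical copies, between which the division of reads is uncertain. Hsf1 was listed at 0 or near 0 in all libraries, at most 0.318 CPM, and was not tested. Since Hsf1 is widely expressed, these values may be a failed estimate in the deposited table, and no absence of the transcript can be read from them.

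Across alternative fits the direction of every tested member was the same. Egr1 had a log2 fold change of 2.22 to 2.62 over 14 fits with other scalings, filters, tests or 1 library left out, Ier5 of 1.39 to 1.68, Ier3 of 1.23 to 1.48, Nr4a1 of 1.15 to 1.34 and Btg2 of 0.68 to 0.85, and each of these 5 was called in all 14. Ier2 ranged from 0.22 to 0.36 and was called in 10 of 14. Egr2 ranged from 0.50 to 0.81 over 13 fits and was called in none. Its adjusted p lay between 0.106 and 0.396.

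**Figure D4:**
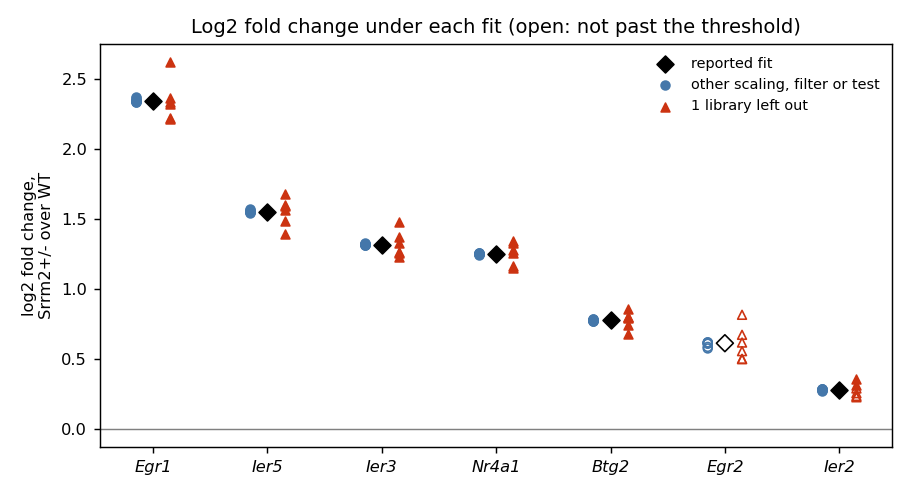
Log2 fold change of Srrm2+/- over WT for the 7 tested genes in the reported edgeR fit (black diamonds), under other scalings, filters and tests (blue circles), and with 1 library left out (red triangles), filled where the adjusted p was under 0.05. Leaving out a library moves the values more than any other choice, and Egr2 and Ier2 are the genes with open symbols.

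The order of the libraries within a genotype differed between members. In WT, replicate 3 was highest for Egr1 and Ier2, replicate 1 for Ier3 and Ier5, and replicate 2 for Egr2, Nr4a1 and Btg2. In Srrm2+/-, replicate 1 was highest for Ier2, Ier5 and Btg2, replicate 2 for Egr1 and Egr2, and replicate 3 for Ier3 and Nr4a1. The lowest WT library was replicate 1 for Egr2, Ier2 and Btg2, replicate 2 for Egr1, Ier3 and Ier5, and replicate 3 for Nr4a1. In Srrm2+/-, replicate 2 was lowest for Ier2, Ier3, Nr4a1 and Btg2, replicate 3 for Egr2 and Ier5, and replicate 1 for Egr1. No library was thus the highest or the lowest of its group for all members.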

How the data were processed

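Total RNA was sequenced from 3 WT and 3 Srrm2+/- cultures with a stranded kit. The authors pseudo-aligned reads with Kallisto 0.46.1 to GENCODE M24 transcripts (GRCm38). What the authors deposited are estimated counts for each gene, without normalisation. The strand setting and a possible filter of the gene list are not given in the sources used here. Reads that fit several transcripts are divided by Kallisto, which can move counts between similar genes.

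The values were rounded to integers before fitting. Genes past filterByExpr (minimum count 10, minimum total 15) were tested, 18905 in all. Differential expression was computed in R 4.3.3 with edgeR 4.0.16 (TMM scaling, glmQLFit and glmQLFTest, two-sided, genotype as the sole term), with Benjamini-Hochberg adjustment over all tested genes and a threshold of 0.05. The SE is the log2 fold change divided by the square root of F. Intervals of fold changes are at 95%, from the SE and a t distribution with 4 residual degrees of freedom. The moderated test behind the p-values uses more degrees of freedom, so that the intervals are wider than these p-values imply. Normalised CPM use TMM-scaled library sizes. Alternatives were RLE and upper quartile scaling, DESeq2 1.42.0, limma voom 3.58.1, 2 other filters, a replicate block, stricter call rules, a fit without mitochondrial, rRNA and short RNA genes, and each library left out. Ratios between members used counts plus 0.5 and an exact permutation test.

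Symbols, lengths and positions came from GENCODE M21 (GRCm38, counted from 1), where 42156 identifiers matched. Promoters came from RefSeq (GRCm38.p6), with a window for 5 of the 8 members. For each, the 1 window nearest the start of a principal GENCODE transcript was used, and other starts of the gene were not searched. The Egr2 and Nr4a1 windows lie inside the gene spans given, before an internal start. The Ier3 window reaches 29 bases into the gene as annotated in GENCODE. Motifs were searched on both strands. Scripts were tested on simulated data.

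The genes named are Srrm2, the members, the genes of the 14 further lists (family relatives, EGR corepressors, AP-1, other immediate early, ERK feedback, SRF and cofactors, CREB and MEF2, p53, CCR4-NOT, HSF1 and heat shock, and markers of ESC, primitive endoderm, trophoblast and fibroblasts), and the 3 tested genes (mean log2 CPM of at least 1) most correlated with each member. The members and lists were chosen with earlier results of these data known, and some of the listed genes are named in the study. P-values measure the spread between thaws of these 2 lines. Intervals of fold changes come from the same fit and include that spread, whereas limits for 0 counts and coefficients of variation from counting cover counting error only.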

Additional observations from a re-analysis of the deposited data

How the results depend on the processing

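The number of members called stayed between 5 and 6 in the fits that left out 1 library, and was 5 at an adjusted p under 0.01 (without Ier2) and 4 with a log2 fold change of at least 1. The number of genes called, 4781, was 2779 at an adjusted p under 0.01 (1574 higher and 1205 lower), 1153 where the fold change also had to reach 1 on the log2 scale in either direction (813 higher and 340 lower), and 3515 to 4122 with 1 library left out. Of 112 tested genes in the other lists 62 were called, 28 under that same fold limit, and 56 to 60 with 1 library left out. Samples with the same replicate number did not deviate together (correlations of -0.03, -0.03 and -0.03), so a shared number is no pairing. With the replicate number as a block, 6 members, 4166 genes and 60 list genes were called, and the calls of Nab2, Dppa5a and Eomes were lost. The difference in the log2 ratio of Egr2 to Egr3, 0.08, became -0.78 without WT replicate 2 and -0.91 without Srrm2+/- replicate 2 (range -0.91 to 0.87), with few or no Egr3 reads in any library. Without 1 library each, the ratio differences ranged from 1.56 to 2.04 for Egr1 to Egr2, 0.86 to 2.82 for Egr1 to Egr3, -1.24 to -0.92 for Ier2 to Ier3, -1.46 to -1.13 for Ier2 to Ier5 and -0.35 to -0.15 for Ier3 to Ier5. With the length of the longest transcript, the level per kb was 0.119 for Egr2 in WT, 1.69 for Nr4a1 in WT and 4.02 for Nr4a1 in Srrm2+/-, because those lengths are shorter than the merged exons. The median log2 fold change of all genes tested lay between -0.00398 and 0.0104 in all fits. Depth limits Egr2 and Egr3, which had at most 43 and 5.40 reads per library.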

Other observations

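Among 11921 tested genes above the expression limit (mean log2 CPM 1), the genes whose log2 CPM followed each member most closely over the 6 libraries are given as a description. All genes share the same libraries, 3 of each genotype, so that any gene that differs between the genotypes correlates with the members. Egr1 was followed by Susd1, Pde5a and Grhl2 (r = 0.999, 0.999 and 0.998), Ier3 by Bcl2l11, Gramd4 and Slc2a1 (0.999, 0.999 and 0.998), and Ier5 by Sh3bgrl, Stk26 and Kctd13 (each 0.998). Nr4a1 was followed by Id2, an inhibitor of basic helix-loop-helix factors, with r = 0.999 and a log2 fold change of 1.24, and then by Rit1 and Etfbkmt (0.998 and 0.997). Btg2 was followed by Map7d1, Lamb3 and Gnas (0.999, 0.998 and 0.997). Each of these 5 members had 633 to 787 genes with r of at least 0.95.

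Egr2 and Ier2 had fewer such genes, 20 and 132. Egr2 was followed by Stn1, Snrpb and Kdm6b (r = 0.993, 0.990 and 0.982), with log2 fold changes of 0.07, 0.08 and 0.35, and Ier2 by Hs1bp3, Pik3cd and Fam129b (0.998, 0.993 and 0.992).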
